A study of Mus musculus with 31 samples.

Results

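The mammalian cytosolic ribosome joins a small subunit, which holds the decoding centre and receives the mRNA, to a large subunit, which forms the peptide bond. Nearly every ribosomal protein is encoded by 1 expressed gene, and processed pseudogenes derived from these mRNAs are scattered over the mouse genome. Most ribosomal protein mRNAs begin with a 5′ terminal oligopyrimidine tract (TOP), a run of C and T at the cap through which LARP1 and mTORC1 signalling control their translation.

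Ribosomal protein genes were chosen by symbol, as Rpl or Rps followed by a number with the usual suffixes, Rplp0 to Rplp2 and Rpsa, without pseudogene symbols, where at least 10 counts were present in at least 5 mice. Of 84 names that match, 82 passed the count minimum among 23509 genes in all. Rpl10l had 0 counts in every mouse and Rpl39l at most 3, whereas the least counted genes that were kept, Rpl26, Rps27 and Rpl3l, had 10 to 39, 10 to 35 and 11 to 36 counts per mouse. The 82 genes comprised 30 canonical small subunit genes, 43 canonical large subunit genes, the 3 genes of the P stalk and 6 paralogs, and lay on 19 chromosomes. All 82 passed edgeR's filter on low counts and were tested among 15185 genes. Fau, Rps3a1 and Gnb2l1 (Rack1) encode ribosomal proteins as well but carry other symbols, and are given separately.

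Kidneys came from 31 male mice. The PBS group held 12 Pcy/CD1 mice given subcutaneous PBS, and the RGLS4326 group held 14 Pcy/CD1 mice given 25 mg/kg RGLS4326 subcutaneously each month. In both groups dosing began at 5 weeks of age, lasted 25 weeks and ended with harvest at 30 weeks. The wild-type group held 5 untreated CD1 mice, also harvested at 30 weeks. Pcy is a slowly progressing model of cystic kidney disease, and RGLS4326 is a short chemically modified oligonucleotide directed against the seed of miR-17. The sources disagree on PBS dosing, given as weekly in the sample annotation and as monthly in the protocol text, and no oligonucleotide of another sequence was part of these libraries. PBS against wild type thus compared cystic with normal kidney, and RGLS4326 against PBS compared treated with mock-treated cystic kidney. Both comparisons use the same PBS mice.

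Whole kidney RNA was read as polyadenylated mRNA, with 14892524 to 27459962 gene counts per mouse. The library labelled RGLS4326 mouse 9 stood apart from the other 13 treated mice. It was the lowest treated mouse for 74 of the 82 genes, lay below every PBS mouse for 72 and lay within the range of the 5 wild-type mice for 67. Its Rpl29 level, 14.1 CPM against 141 to 179 CPM in the other treated mice, and its summed proximal tubule and injured epithelium markers lay in the wild-type range too. These values go against its label as a cystic kidney, and whether this animal carried the Pcy genotype was not tested. Calls and fold changes of the RGLS4326 comparisons are therefore also given without it, while alternative settings and intervals were computed with all mice. Levels are in CPM, a gene's counts as parts of 1000000 counts of its library, after scaling with edgeR's TMM factors, fold changes come from edgeR's quasi-likelihood test over all 31 mice with an approximate standard error (SE), and adjusted p-values are Benjamini-Hochberg values over all genes tested.

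The sequences that a TOP mRNA and an anti-miR-17 oligonucleotide make relevant are shown first. RefSeq held a promoter entry of GRCm38.p6 for 61 of the 82 genes. Within 30 bases before to 50 after the annotated start, the longest pyrimidine run had a median of 10 bases in these genes and 6 bases in 17492 protein-coding genes, and a run of at least 8 bases was present in 49 of 61 (80.3%) and in 32.2% of all. The windows below, on GRCm38.p6 and read 5′ to 3′ on the strand of the gene, are a selection. They cover some of the members with the smallest p-values, some of the paralogs and Rps6, and leave out Rpl29 and Rpl39 among others. The longest run is in capitals, or 1 of them where runs tie, as in Rps27l.
Rpl12 (chr2:32961732-32961761, plus strand): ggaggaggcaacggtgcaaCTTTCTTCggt
Rps24 (chr14:24490698-24490727, plus strand): ttggtcggcagtgagcggTCCTCTTTTCCT
Rps26 (chr10:128626485-128626514, minus strand): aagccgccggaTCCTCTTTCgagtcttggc
Rpl9 (chr5:65391383-65391412, minus strand): acgaaagacgTTCTCTCTTTgccccatcta
Rps3 (chr7:99483720-99483749, minus strand): tgcaaaacttcaTTTCCCatgaacacttgc
Rps6 (chr4:86857349-86857378, minus strand): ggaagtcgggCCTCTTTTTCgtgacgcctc
Rpl35a (chr16:33056468-33056497, plus strand): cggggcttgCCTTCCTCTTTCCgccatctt
Rps27l (chr9:66946063-66946092, plus strand): actcctctccaCTCCTCCCCgccgcctcta
Rpl36al (chr12:69184020-69184049, minus strand): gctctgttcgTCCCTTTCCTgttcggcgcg
Rpl3l (chr17:24727846-24727875, plus strand): tggtggggaggCCCCTTCCTaacctgcagg

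In Rps6 the run began 1 base before the annotated start, where the cap of a TOP mRNA would lie, and in Rps26 it began 3 bases after it. In Rpl9 it began 29 bases after the start, in Rps24 38 bases after and in Rpl12 39 bases after, and Rps3 had no run longer than 6 bases near the start of its entry.

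Over the 300 bases of each promoter entry and on both strands, the letters CCGGAAGT, the core bound by ETS factors, were found in 12 of 61 members (19.7%) and in 5.69% of all promoters. AAGATGG, a YY1 motif, was found in 10 members (16.4%) and 7.18% of all, and TATAAA, the TATA box, in 7 members (11.5%) and 14.8% of all.

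RGLS4326 pairs with the seed of miR-17. The mature RNA is encoded on the plus strand of GRCm38.p6 at chr14:115043684-115043706, and its seed, bases 2 to 8, is in capitals.
mmu-miR-17-5p: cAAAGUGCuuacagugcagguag

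A match to this seed, GCACTTT, was searched in annotated 3′UTRs. The 3′UTRs of ribosomal protein genes are short, with a median of 66 bases in 81 members against 773 bases in all 19569 genes. The match was present in 2 members (2.47%), Rps15a and Rps20, and in 2084 of all genes (10.6%). Rps15a had a log2 fold change with RGLS4326 of −0.15 (SE 0.064, adjusted p = 0.0989) and Rps20 one of −0.21 (SE 0.092, adjusted p = 0.0986). Without mouse 9 these were −0.11 and −0.17.

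Counts on ribosomal protein genes made up a larger share of all gene counts in cystic kidney. The share was lowest at 1.71%, median 2.19% and highest at 3.03% in the 12 PBS mice, and it was 1.23%, 1.21%, 1.23%, 1.19% and 1.19% in wild-type mice 1 to 5. Every PBS mouse was above every wild-type mouse, and the wild-type mice spanned 1.03-fold, whereas the PBS mice spanned 1.77-fold. With RGLS4326 the share was lowest at 1.26% in mouse 9, median 2.02% and highest at 2.43%, and the other 13 mice ran from 1.63%. The mean of the 5 wild-type mice was 1.21% (SD 0.017) and that of the 12 PBS mice 2.34% (SD 0.428). The 14 treated mice averaged 1.96% (SD 0.324), and 13 without mouse 9 averaged 2.01% (SD 0.264). The PBS and RGLS4326 groups overlapped broadly.

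**Figure D1:**
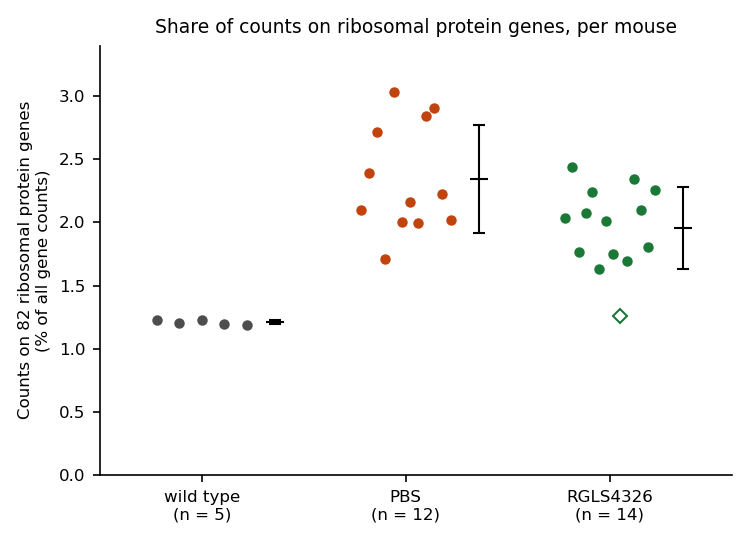
Counts on the 82 ribosomal protein genes as percent of all gene counts (y axis) for each mouse in the wild-type, PBS and RGLS4326 groups (x axis), with the mean and SD beside each group. All PBS mice lie above the wild-type mice, and RGLS4326 mouse 9 (open diamond, 1.26%) lies next to them.

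The share depends on what else the kidney expresses. The 20 most abundant genes took 17.5 to 18.5% of counts in wild type, 10.9 to 15.9% with PBS and 13.8 to 17.4% with RGLS4326. As a percentage of the TMM-scaled library size, which is less sensitive to such genes, the members read 1.40 to 1.50 in wild type, 1.70 to 2.70 with PBS, 1.73 to 2.26 with RGLS4326 and 1.41 in mouse 9.

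Ribosomal protein genes were higher in PBS-treated Pcy kidney than in wild-type kidney nearly throughout. In this comparison 77 of the 82 were higher and 3 lower at an adjusted p under 0.05, against 37.7% higher and 36.6% lower among all 15185 genes tested. The median log2 fold change of the members was 0.56, a 1.48-fold difference, against 0.010 for all genes. In 65 of the 82 genes every PBS mouse exceeded every wild-type mouse, which held for 20.3% of all genes. With an absolute log2 fold change over 0.5 required as well, 53 members were higher, against 24.6% of all genes, and 1 was lower, against 17.8%. Most differences were of moderate size, with quartiles at 0.44 and 0.67, and 2 members, Rpl29 and Rpl12, exceeded 2-fold.

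The index series are the 3 runs of sample numbers in the library names. Series 1 and 2 held 2 wild-type mice each and series 3 held 1. In series 1 and 2, 59 and 68 members were higher, against 26.3% and 23.4% of all genes, and the medians were 0.47 and 0.58. In series 3, with its single wild-type mouse, the median was 0.69. Scaling by library totals alone moved the median of all genes to 0.38 and of the members to 0.94, so that the distance between the 2 medians was 0.56, as against 0.55 with TMM. Under that scaling 80.0% of all calls were higher, under upper quartile scaling 61.7% and with TMM 50.7%.

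**Figure D2:**
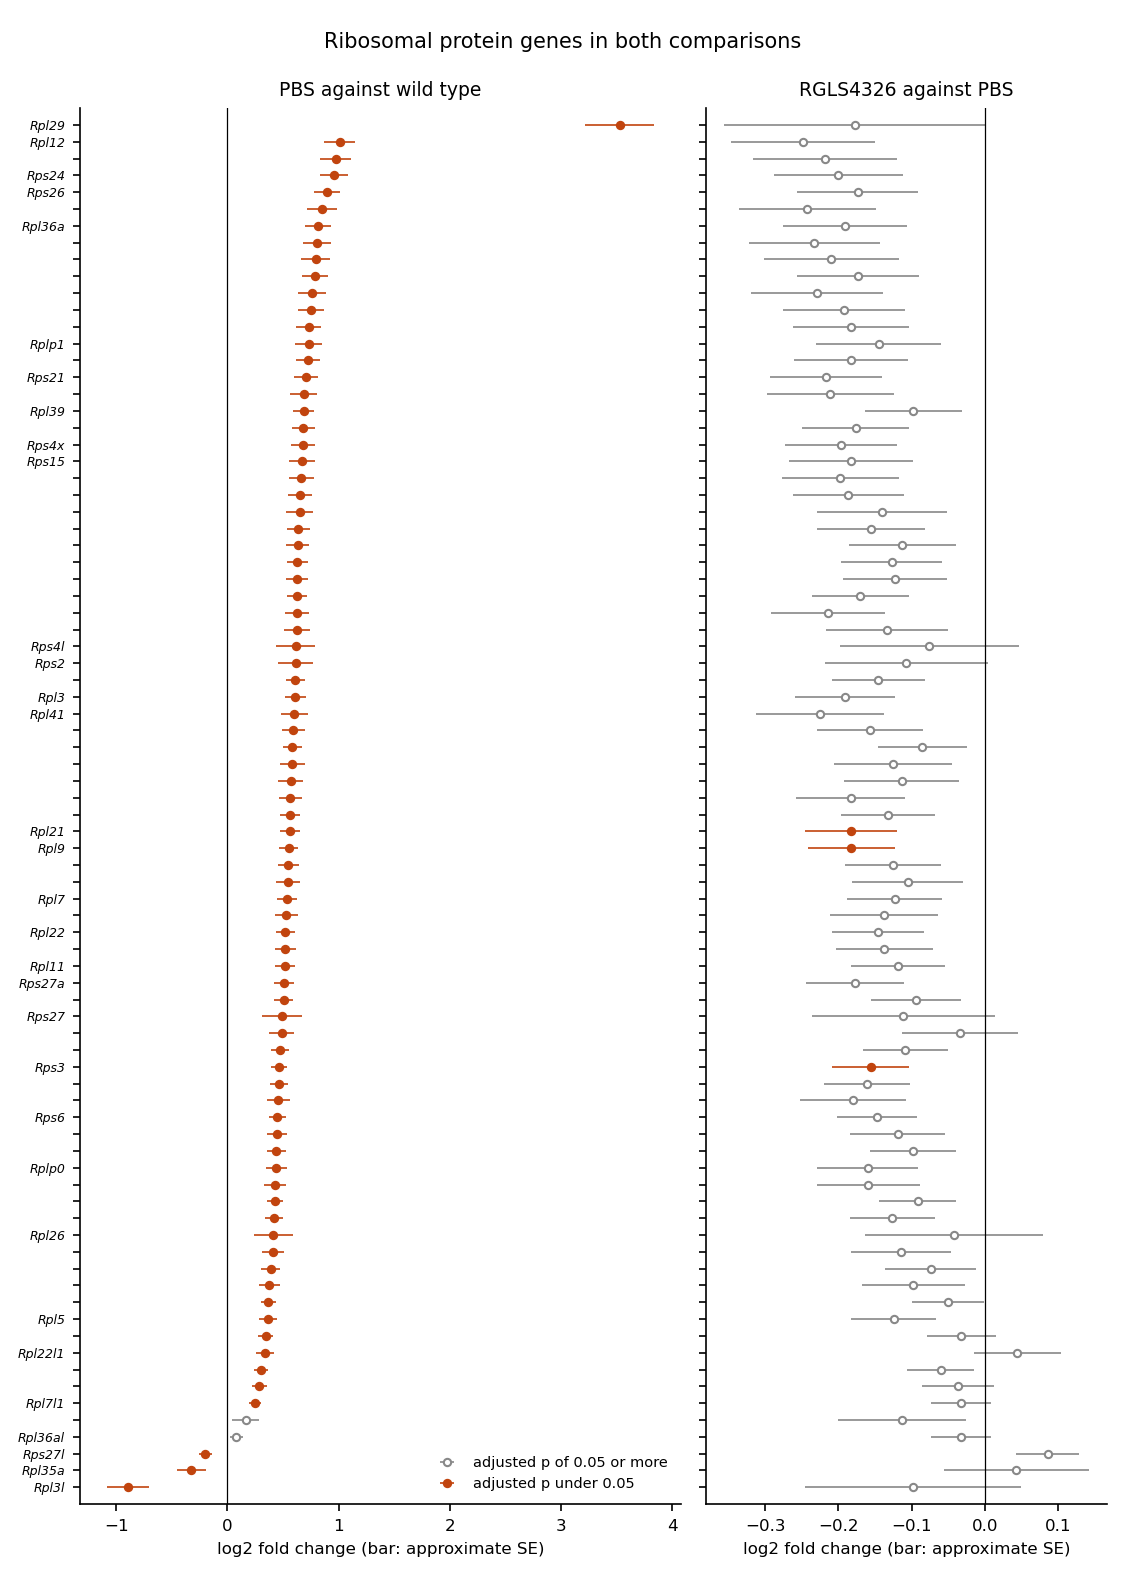
The log2 fold change (x axis, bar: approximate SE) of each of the 82 genes (y axis, 1 line per gene, with names for those chosen by the naming rule), ordered by PBS against wild type, in that comparison and in RGLS4326 against PBS; filled points passed an adjusted p under 0.05. Rpl29 stands alone at 3.53 on the left, and all values on the right lie between −0.25 and 0.09.

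All 30 canonical small subunit genes were higher with PBS, from 0.34 for Rps25 to 0.97 for Rps12, with a median of 0.63. The call of Rps27 (0.49), on few counts, was lost with the replicate number as a block (adjusted p = 0.0585), with the transcript length trend removed (0.0773) and without wild-type mouse 1 (0.0730) or 5 (0.0502), and its value ran from 0.38 to 0.78 when each mouse was left out in turn. Rps24, needed to process the precursor of 18S rRNA, read 220, 215, 213, 207 and 166 CPM in wild-type mice 1 to 5 and 288, 382 and 485 CPM as the lowest, median and highest with PBS. The groups did not overlap, and the log2 fold change was 0.96 (SE 0.13, adjusted p = 1.15e-07 by edgeR). Rps26, which contacts the mRNA at the exit channel, read 73.5 to 87.0 CPM in wild type and 109, 147 and 193 CPM with PBS, a log2 fold change of 0.90 (SE 0.12, adjusted p = 1.34e-07 by edgeR). With RGLS4326, every treated mouse, mouse 9 included, exceeded every wild-type mouse in 3 members, Rps24, Rps26 and Rps28. This held for 3.66% of the members, against 5.04% of all genes.

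Rps6, the substrate of S6 kinase, read 112 to 128 CPM in wild type and 137, 157 and 198 CPM with PBS, again without overlap, and differed by 0.45 (SE 0.076, adjusted p = 5.09e-06 by edgeR). Rps27a, made as a fusion with ubiquitin, read 186 to 210 CPM in wild type and 227 to 345 CPM with PBS, a log2 fold change of 0.51 (SE 0.093, adjusted p = 1.53e-05 by edgeR).

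Rps2, which lines the mRNA entry site, was less even. It read 181, 338, 330, 321 and 415 CPM in wild-type mice 1 to 5, whereas PBS mice ran from 419 to 579 CPM with a median of 478, and mouse 9 read 179 CPM beside 434 to 519 CPM in the other treated mice. Wild-type mouse 1 and mouse 9 were both far below their groups. The log2 fold change was 0.61 (SE 0.16, adjusted p = 0.000811 by edgeR), and of the windows of 75 bases in its transcript 71.1% also occur in other annotated genes.

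Of the 43 canonical large subunit genes, 41 were higher with PBS, Rpl35a was lower and Rpl34 did not pass (log2 fold change 0.17, SE 0.12, adjusted p = 0.216). Rpl12, a neighbour of the stalk base, read 158, 153, 152, 147 and 142 CPM in wild-type mice 1 to 5 and 221, 277 and 386 CPM with PBS, without overlap, with a log2 fold change of 1.01 (SE 0.14, adjusted p = 2.81e-07 by edgeR). Rpl39, a small protein of the exit tunnel, read 54.6 to 60.5 CPM in wild type and 72.7, 88.7 and 108 CPM with PBS, a log2 fold change of 0.69 (SE 0.094, adjusted p = 2.21e-07 by edgeR). Rpl5 and Rpl11, which form a complex with 5S rRNA that binds Mdm2 when ribosome assembly fails, had log2 fold changes of 0.36 (SE 0.080, adjusted p = 0.000183) and 0.52 (SE 0.090, adjusted p = 8.09e-06). Rpl5 overlapped between the groups, at 227 to 267 CPM in wild type and 247 to 369 CPM with PBS, whereas Rpl11 did not, at 159 to 178 CPM and 190 to 284 CPM.

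The 3 stalk genes, whose proteins recruit the translational GTPases, were all higher. Rplp0, often used as a reference gene for qPCR, read 536, 503, 560, 545 and 512 CPM in wild type and 572, 687 and 953 CPM with PBS. No PBS mouse fell within the wild-type range, and the log2 fold change was 0.44 (SE 0.096, adjusted p = 0.000146 by edgeR). Rplp1, the most abundant member per transcript length, had a mean of 618 CPM per kb in wild type, 1027 with PBS and 929 with RGLS4326, followed by Rps15 with 518, 825 and 727 and Rpl41 with 520, 790 and 676. The difference of Rplp1 between PBS and wild type was 0.73 on the log2 scale (SE 0.12, adjusted p = 3.59e-06), and that of Rpl41 was 0.60 (SE 0.12, adjusted p = 6.35e-05).

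Rpl29, a large subunit protein also described as a heparin-binding protein of the cell surface, differed far more than any other member. It read 14.7, 14.2, 14.97, 14.6 and 13.7 CPM in wild-type mice 1 to 5 and 136, 165 and 205 CPM as the lowest, median and highest with PBS. Of the treated mice, 13 read 141 to 179 CPM and mouse 9 read 14.1 CPM, inside the wild-type range. The values formed separate low and high sets with nothing between 15 and 136 CPM. The log2 fold change between PBS and wild type was 3.53 (SE 0.31, adjusted p = 6.39e-10 by edgeR), 11.5-fold. Within the 3 index series it was 3.41, 3.52 and 3.70, the last against a single wild-type mouse. Of its transcript windows 56.8% occur in other annotated genes.

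Rpl29 lies on the plus strand of GRCm38 chromosome 9 at 106429454 to 106431568. Rpl29 was 1 of 7 members on chromosome 9, whose median log2 fold change of 0.43 was below that of all members. The Pcy mutation and other sequence that differs between Pcy/CD1 and CD1 mice cannot be told apart in this design.

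**Figure D3:**
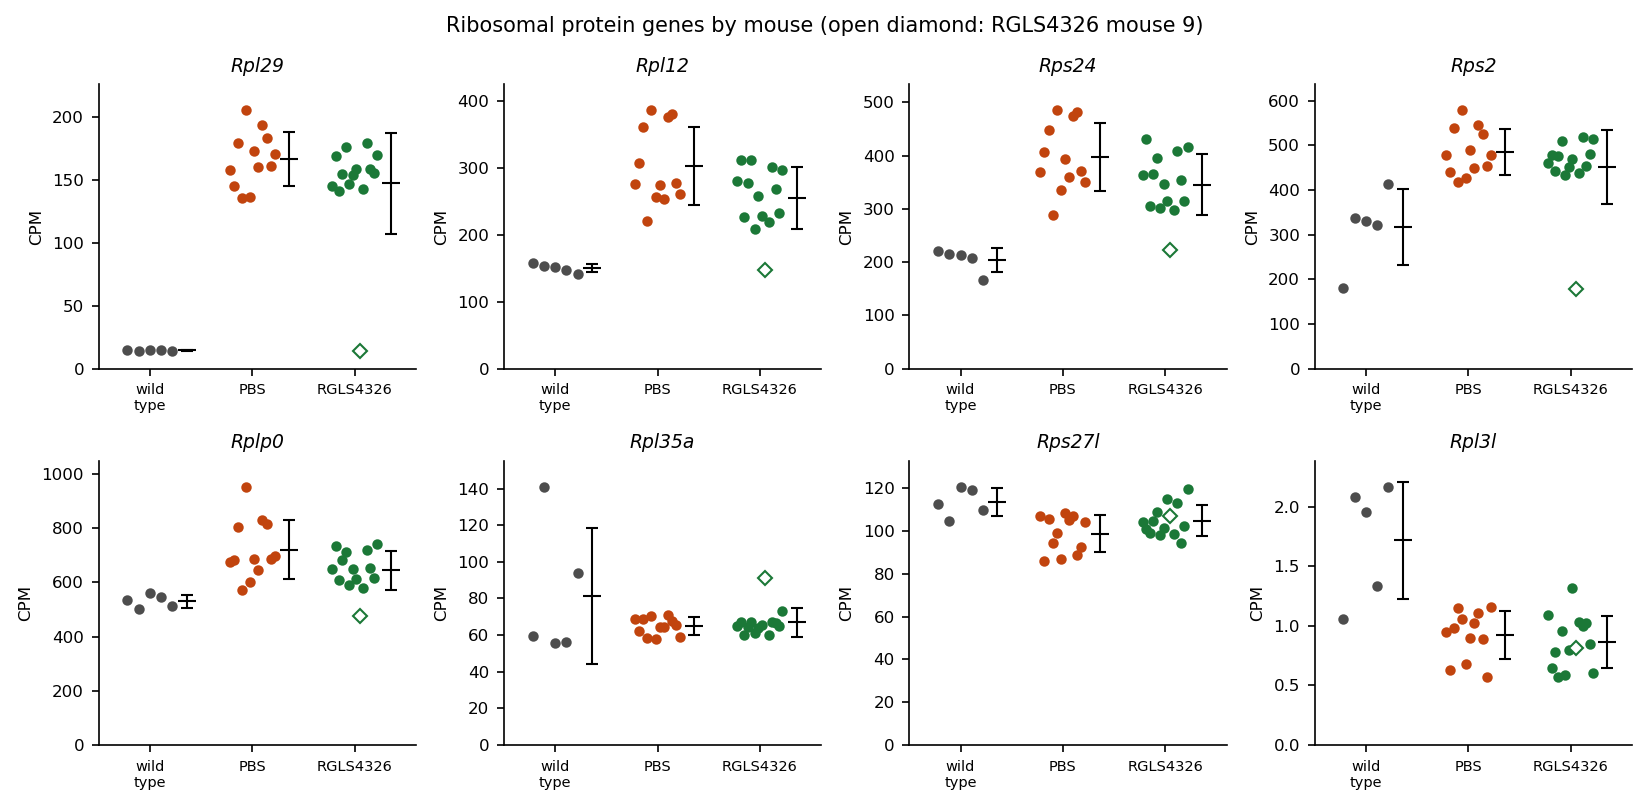
CPM (y axis) of 8 ribosomal protein genes in each mouse of the wild-type, PBS and RGLS4326 groups (x axis), with mean and SD. Rpl29 splits into values near 14 and values from 136 CPM upward, with mouse 9 (open diamond) among the low ones, while Rpl35a is raised in wild-type mice 2 and 5 and in mouse 9.

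Paralogs varied among themselves. Of the 6 that were measured, Rps4l, Rpl22l1 and Rpl7l1 were higher with PBS, Rpl3l and Rps27l were lower, and Rpl36al did not pass (log2 fold change 0.080, SE 0.056, adjusted p = 0.196). Their median log2 fold change was 0.16, and of all genes tested 37.7% were higher and 36.6% lower. Rpl3l, the striated muscle form of Rpl3, was scarce at 1.06, 2.08, 1.95, 1.33 and 2.17 CPM in wild type and at most 1.16 CPM with PBS (lowest 0.574, median 0.967), so that only wild-type mouse 1 fell among the PBS values, and it differed by −0.89 (SE 0.19, adjusted p = 0.000103 by edgeR). Rps27l, a p53-inducible form of Rps27, read 105 to 121 CPM in wild type and 85.9, 102 and 108 CPM with PBS, with overlapping groups, and differed by −0.20 (SE 0.058, adjusted p = 0.00267 by edgeR), a call lost under upper quartile scaling (−0.082, adjusted p = 0.199) and a sign that turned to 0.16 when libraries were scaled by their totals alone.

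Rpl35a, the third gene that was lower, read 59.5, 141, 55.9, 56.2 and 93.8 CPM in wild-type mice 1 to 5, whereas PBS mice stayed between 58.0 and 71.1 CPM with a median of 65.1, and treated mice other than mouse 9, at 91.4 CPM, between 59.8 and 73.4 CPM. All PBS mice lay inside the wild-type range, which wild-type mice 2 and 5 widened. The log2 fold change of −0.32 (SE 0.13, adjusted p = 0.0286 by edgeR) fell short of the threshold when wild-type mouse 2 (−0.027) or mouse 5 (−0.27) was left out. It did so too with only both groups fitted (adjusted p = 0.0928), with the replicate number as a block (0.112) and under upper quartile scaling (0.169), and the sign turned with library totals alone (0.047) and in series 2 (0.21).

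A canonical gene and its paralog were counted in the same library, so their ratio does not depend on scaling. The log2 ratio of Rpl36a to Rpl36al was −0.15 ± 0.071 (SD, n = 5) in wild type and 0.56 ± 0.224 (SD, n = 12) with PBS, with every PBS mouse above every wild-type mouse, a difference of 0.71 (exact two-sided permutation test, p = 0.000323, 0.00194 after Benjamini-Hochberg adjustment over 12 tests of 6 pairs in 2 comparisons). The ratio of Rpl3 to Rpl3l differed by 1.47 (exact permutation p = 0.000323, adjusted 0.00194), Rps27 to Rps27l by 0.74 (exact permutation p = 0.00388, adjusted 0.0131) and Rpl7 to Rpl7l1 by 0.28 (exact permutation p = 0.0120, adjusted 0.0287). Rpl22 to Rpl22l1 differed by 0.17 (exact permutation p = 0.0876, adjusted 0.131) and Rps4x to Rps4l by 0.064 (exact permutation p = 0.657), within the spread between mice. The Rps27 ratio rests on 10 to 35 counts per mouse, and 98.5% of the windows of its transcript recur in other genes.

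Between RGLS4326 and PBS the ratio of Rpl22 to Rpl22l1, a pair in which the product of the first is known to repress the second, was 1.78 ± 0.115 (SD, n = 14) against 1.96 ± 0.178 (SD, n = 12), a difference of −0.19 (permutation test with 100000 resamples, p = 0.00436, adjusted 0.0131). Without mouse 9 it was −0.19 (permutation p = 0.00426). The ratio ran from 1.62 to 1.99 in treated mice and from 1.73 to 2.27 in PBS mice, so the groups overlapped. The other 5 pairs did not pass, with adjusted permutation p-values from 0.0992 for Rps27 to 0.632 for Rpl3. Without mouse 9 their unadjusted permutation p-values ran from 0.0812 for Rps27 to 0.728 for Rpl3.

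**Figure D4:**
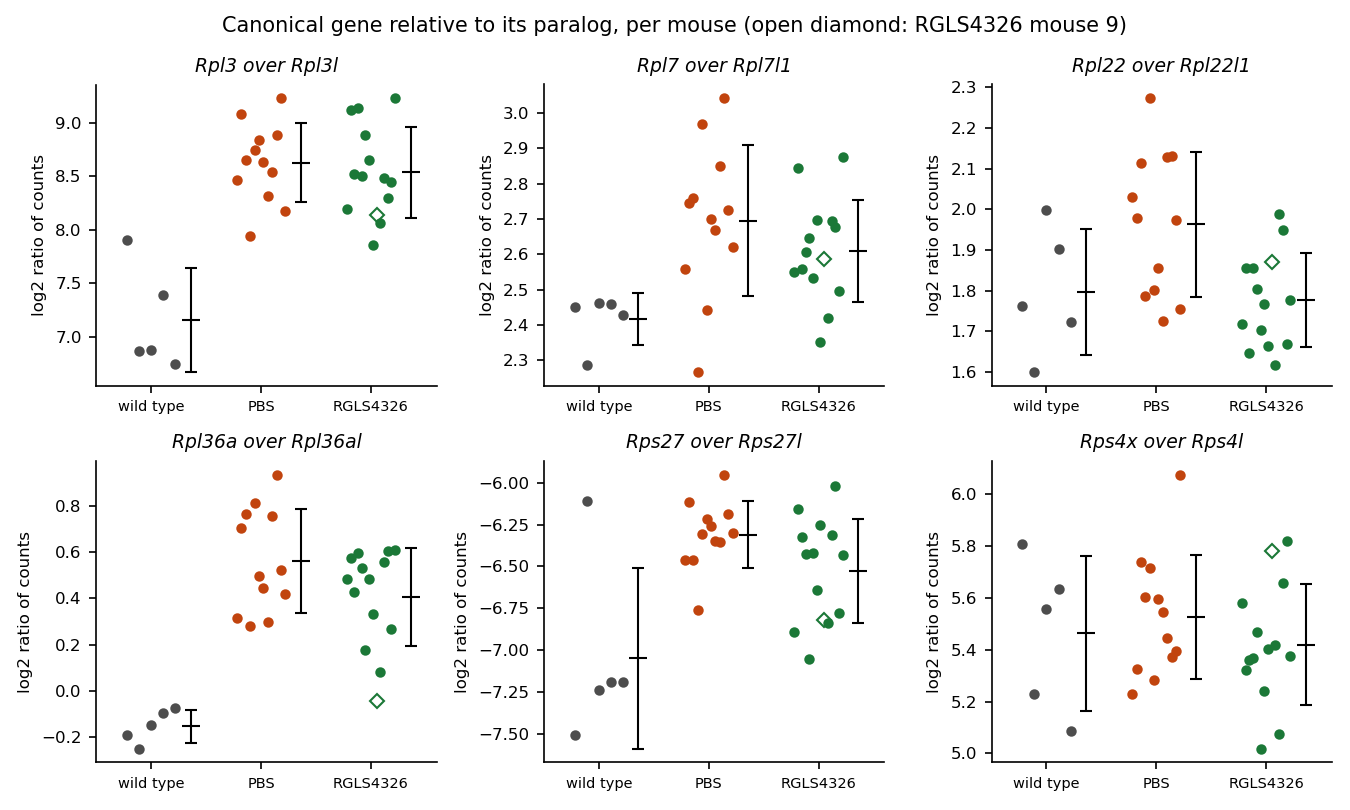
Log2 ratio of the counts of a canonical gene to those of its paralog (y axis, not starting at 0) in each mouse of the 3 groups (x axis), with mean and SD. Rpl36a over Rpl36al separates wild type from PBS, while Rps4x over Rps4l overlaps in all groups.

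Few ribosomal protein genes passed the test for RGLS4326 against PBS. At an adjusted p under 0.05, 3 members were lower than with PBS and 0 were higher, against 6.66% lower and 9.15% higher among all genes tested. The 3 of 82 (3.66%) were thus no larger a share than in the background, and with an absolute log2 fold change over 0.5 required 0 members passed, against 1.22% of all genes lower and 0.935% higher. The log2 fold change was below 0 in 79 of 82 members, as in 51.1% of all genes, with a median of −0.14 against −0.004. At an unadjusted p under 0.05, 42 members were lower, against 17.2% of all genes, and 0 were higher, against 19.6%. Without mouse 9, 0 members were lower at the adjusted threshold by edgeR's test, against 3.48% of all genes lower and 4.66% higher, 25 were lower at the unadjusted one, against 15.2%, and the median was −0.11.

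The 3 called genes sat at the threshold. Rpl9, near the stalk base of the large subunit, read 276, 329 and 399 CPM as the lowest, median and highest with PBS, 256, 296 and 342 CPM with RGLS4326 apart from 222 CPM in mouse 9, and 218 to 241 CPM in wild type. It differed by −0.18 (SE 0.059, adjusted p = 0.0392 by edgeR), and by −0.15 without mouse 9 (adjusted p = 0.0638). Rps3, at the mRNA entry site and also a DNA repair nuclease, read 340, 394 and 480 CPM with PBS and 336, 365 and 419 CPM with RGLS4326 apart from 286 CPM in mouse 9, a difference of −0.16 (SE 0.053, adjusted p = 0.0434) that was −0.13 without mouse 9 (adjusted p = 0.0718). Rpl21 read 180, 220 and 270 CPM with PBS and 181, 201 and 227 CPM with RGLS4326 apart from 146 CPM in mouse 9, a difference of −0.18 (SE 0.063, adjusted p = 0.0474) that was −0.15 without mouse 9 (adjusted p = 0.0755). With only both groups fitted the adjusted p-values of the 3 were 0.0563, 0.0598 and 0.0644, and with the replicate number as a block 0.0819, 0.0855 and 0.108. In all 3 the PBS and treated mice overlapped over most of their ranges.

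The next smallest p-values were those of Rps21 (−0.22, SE 0.077, adjusted p = 0.0505, and −0.18 without mouse 9) and Rpl3 (−0.19, SE 0.068, adjusted p = 0.0521, and −0.16 without), and the lowest log2 fold change was that of Rpl12 (−0.25, SE 0.098, adjusted p = 0.0718, and −0.20 without). The 3 values above 0 were 0.086 for Rps27l (SE 0.043, adjusted p = 0.143), 0.045 for Rpl22l1 (SE 0.059, adjusted p = 0.597) and 0.043 for Rpl35a (SE 0.099, adjusted p = 0.768), and all 3 fell below 0 with library totals alone. Without mouse 9 they were 0.085, 0.083 and 0.0031. Rpl29 had −0.18 (SE 0.18, adjusted p = 0.480), and −0.079 without mouse 9. The 95% interval of the RGLS4326 effect lay within 0.5 of 0 on the log2 scale for 81 members, the exception being Rpl29 (−0.53 to 0.17), and below 0 for 42.

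The number of lower members hinged on single mice. It ran from 0 to 33 when each mouse was left out in turn, with 33 without PBS mouse 4, 22 without RGLS4326 mouse 2, 14 without RGLS4326 mouse 11 and 0 without mouse 9. Of all genes 10.9%, 11.9%, 7.99% and 3.48% were lower in the same order. PBS mouse 4 was the lowest PBS mouse for 67 of the 82 genes and PBS mouse 5 the highest for 64. Within each index series 0 members passed, as did 0% of all genes, and the medians were −0.044, −0.22 and −0.15. At an unadjusted p under 0.05 by edgeR's test 0, 7 and 0 members were lower, against 0.874%, 8.68% and 10% of all genes, and mouse 9 belongs to series 2. DESeq2 called 9 members lower and 0 higher, against 8.74% and 12.4% of all genes. Scaling by library totals alone gave 55 lower members, against 27.2% of all genes, while moving the median of all genes to −0.12, and it left 11.8% of all calls higher, as against 42.2% with upper quartile scaling and 57.9% with TMM.

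Against wild type, 75 members were higher with RGLS4326 and 1, Rpl3l, was lower, against 32.5% and 32.4% of all genes. The median log2 fold change was 0.42, and 0.45 without mouse 9, when 76 were higher and 2 lower, against 34% and 33.5% of all genes. With an absolute log2 fold change over 0.5 required, 23 were higher and 1 lower, against 20.3% and 11.3%, and without mouse 9 the numbers were 33 and 1, against 21.3% and 12.5%. In 67 members the 13 other treated mice all exceeded every wild-type mouse, against 16.2% of all genes, whereas mouse 9 included the number was 3, against 5.04%.

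Other genes of translation were read from the same fit, in which 37.7% of all genes were higher and 36.6% lower with PBS. Of the ribosomal protein genes of other name, Gnb2l1 was higher with PBS by 0.46 (SE 0.080, adjusted p = 8.44e-06), Fau by 0.64 (SE 0.11, adjusted p = 7.69e-06) and Rps3a1 by 0.91 (SE 0.21, adjusted p = 0.000325), and none of these passed with RGLS4326, with or without mouse 9. Of 6 elongation factor genes 3 were higher and 2 lower, with Eef1b2, which reloads eEF1A with GTP, at 0.51 (SE 0.081, adjusted p = 2.41e-06). Of 14 other mRNAs with a TOP, 6 were higher and 3 lower, from −0.55 for Nap1l1, a histone chaperone, to 1.55 for the filament gene Vim. Of 8 TOP genes that host snoRNAs, 5 were higher and 0 lower, with a median of 0.43, and Snhg7 rose from 4.33 to 11.04 CPM. Snhg7 was also the single list gene of the 3 TOP lists that was lower with RGLS4326 (−0.33, SE 0.11, adjusted p = 0.0434), a call lost without mouse 9.

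Genes that build ribosomes, start translation or signal to it are set against the same shares of all genes, 37.7% higher and 36.6% lower with PBS. Of 59 ribosome assembly genes 21 were higher and 15 lower with PBS, with a median of 0.023, and Utp20, a component of the small subunit processome, was at −1.02 (SE 0.095, adjusted p = 1.46e-09). Of 28 initiation factor genes 5 were higher and 11 lower, with Eif5 at −0.79 and the cap-binding Eif4e at −0.49. Of 16 genes of mTORC1 and LARP1 3 were higher and 11 lower, with Mtor at −1.02 (SE 0.13, adjusted p = 8.50e-08). Of 12 genes of translational stress 7 were higher and 3 lower. With RGLS4326, 2 assembly genes were higher and 2 lower, 6 initiation factor genes were higher and 0 lower, 5 genes of mTORC1 and LARP1 were higher and 1 lower, and 2 stress genes were higher and 0 lower, where 9.15% of all genes were higher and 6.66% lower. Without mouse 9 these lists had 1, 5, 3 and 1 higher genes and 0, 0, 1 and 0 lower, where 4.66% and 3.48% of all genes were.

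Mitochondria hold a ribosome of their own, built from separate nuclear genes. The shares of all genes were again 37.7% higher and 36.6% lower with PBS. Of its 76 genes 8 were higher and 45 lower with PBS, at a median of −0.17 where the cytosolic members had 0.56, and Mrpl20 read 92.8 CPM in wild type and 56.2 CPM with PBS. Of 47 nuclear genes of the respiratory chain 1 was higher and 38 lower, at a median of −0.27, and of 14 proteasome core genes 1 was higher and 6 lower, at −0.05. With RGLS4326, 8, 4 and 2 genes of these lists were higher and 0 lower, where 9.15% of all genes were higher, and without mouse 9 1, 1 and 0 were higher, where 4.66% of all were. Whether the lists differ from one another was not tested.

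**Figure D5:**
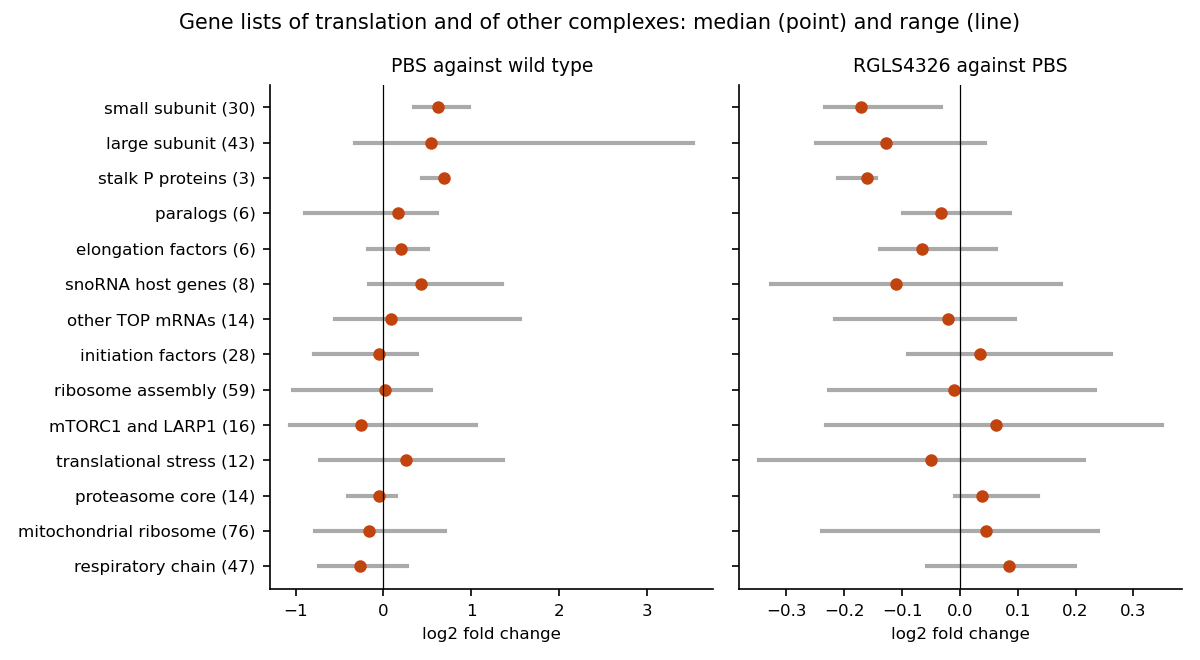
Median (point) and range (line) of the log2 fold change (x axis) in lists of genes (y axis, number tested in brackets) in the disease comparison (left) and in the treatment comparison (right). The canonical subunit lists sit at 0.63 and 0.54 on the left, above the assembly, initiation and mitochondrial lists, and all medians on the right lie within 0.2 of 0.

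Cell type markers moved with the same groups, and fewer cells of a type cannot be told apart from less RNA per cell in whole kidney. Of 10 proximal tubule markers 10 were lower with PBS, where 36.6% of all genes were lower and 37.7% higher, and their summed level was 27422 to 31886 CPM in wild type, 8077 to 16171 with PBS, 10872 to 18537 in 13 treated mice and 27812 in mouse 9. Of 10 markers of injured epithelium 10 were higher, with sums of 615 to 1158, 3336 to 8196, 2917 to 6954 and 1040 in the same order. Of 9 leukocyte markers 9 were higher, with sums of 330 to 412, 1152 to 2377, 836 to 2229 and 341, and of 10 fibroblast markers 8 were higher, with sums of 220 to 285, 642 to 1362, 585 to 1410 and 340. Of 10 proliferation genes 10 were higher, with sums of 47.1 to 67.0, 85.8 to 165, 79.5 to 130 and 62.3. No marker of these lists was at 0 throughout. PBS mouse 5, with the highest share of ribosomal protein counts, also had the highest injured epithelium (8196 CPM) and leukocyte (2377 CPM) sums, and PBS mouse 4, with the lowest share, had the lowest injured epithelium sum (3336 CPM). Other extremes fell in other mice, with the highest fibroblast sum in PBS mouse 11, the highest proliferation sum in mouse 3, the lowest proximal tubule sum in mouse 10 and the lowest leukocyte sum in mouse 1. The part of cell composition in the ribosomal protein differences was not tested.

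Many ribosomal protein genes share sequence with other genes. Reads that align to several places were not counted, and such alignments made up 17.8 to 21.2% of all that was tallied in a mouse. Of all members 79 shared at least one window of 75 bases with another annotated gene, with a median of 48.2% of windows and over 50% in 40 genes. The canonical genes Rps27, Rpl26, Rpl30 and Rpl34 were under 5 CPM in every group mean, with 98.5%, 57.5%, 65.1% and 41.4% of their windows shared. Rpl26 at 1.96 CPM per kb with PBS and Rps27 at 3.56 were among the 3 lowest members per length, with Rpl3l at 0.673. Rps3, 1 of the members that shared no window, was higher with PBS by 0.47 (SE 0.073, adjusted p = 1.76e-06 by edgeR), and the others without a shared window are not given here. The part of shared sequence in these levels and in the differences between groups was not tested.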

How the data were processed

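The authors deposited 1 table of raw gene counts per mouse, not normalized. Per the study's methods and labels, TruSeq stranded mRNA libraries of whole kidney were sequenced as pairs of 75 bases, trimmed with TrimGalore, mapped with STAR to GRCm38 and counted for uniquely mapped reads with HTSeq 0.6.1; the annotation is not given in the sources used here. From these counts, edgeR 4.0.16 in R 4.3.3 kept genes passing filterByExpr, scaled libraries by TMM and fitted 1 quasi-likelihood model to all 31 mice with 1 coefficient per group; the SE is the absolute log2 fold change over the square root of F. DESeq2 1.42.0 served as an alternative, and Python 3.11.15 for the rest. Paralog ratios used a pseudocount of 0.5 and permutation tests over mice. Transcript lengths, shared windows and 3′UTRs came from GENCODE vM21, and promoter and miRNA sequences from RefSeq on GRCm38.p6. On data simulated for PBS against wild type over 15086 genes, 91 of 100 genes changed by 0.5 on the log2 scale and 98 of 100 changed by 1 were called. In that simulation 13 unchanged genes were called as well. The changed genes were drawn from the more abundant ones and were few among all genes, so these rates do not cover members with few counts, such as Rpl26, Rps27 and Rpl3l. The RGLS4326 comparisons were not simulated. The most alike pair of wild-type libraries, mice 3 and 4, had a mean chi-square per gene of 2.69, where sampling noise gives about 1. The next most alike wild-type pair had 16.05, and the most alike pairs had 4.91 with PBS and 7.02 with RGLS4326. These values cannot tell whether mice 3 and 4 are 2 animals, since repeat libraries of 1 animal can also exceed sampling noise. They were counted as 2 mice, as labelled.

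Members and gene lists were chosen with earlier results of these data known. Members named with values were the 5 with the smallest p-values in each direction and the extreme log2 values in the disease and in the treatment comparison, the 3 highest and lowest per length, paralogs with their partners, Rplp0, Rps6, Rps27a, Rpl5, Rpl11 and the 3 whose group means differed most between index series. Of other lists the 2 genes with the smallest p-values were named if called. Fau, Gnb2l1, Rps12, Rps15a, Rps20, Rps25, Rps28, Rpl30 and Rpl34 were named after their values were seen, likewise Rps3a1 and the pseudogenes. Some items are not reported here. Intervals are from the fit and cover the spread between mice. The 5 summary tallies of HTSeq, with reads outside genes at 8.39 to 10.1% of all, stayed out of totals and tests.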

Additional observations from a re-analysis of the deposited data

Results flagged for a closer look

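In groups of 4 to 10 mice, which here meant wild type alone, 33 measures were examined for a mouse far from the others by Dixon's ratio, the gap to the nearest mouse over the range of the group, at a critical value of 0.71. Chance alone marks about 1 in 20 such measures, and 2 were marked. Rps24 read 166 CPM in wild-type mouse 5 where the nearest other mouse read 207 CPM, a ratio of 0.763. Rps27 read 1.48 CPM in wild-type mouse 2 where the nearest read 0.787 CPM, a ratio of 0.780, on 10 to 35 counts per mouse.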

How the results depend on the processing

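Leaving out each mouse in turn gave 76 to 77 higher and 2 to 3 lower members for PBS against wild type, 0 to 33 lower for RGLS4326 against PBS, and 75 to 76 higher and 1 to 2 lower for RGLS4326 against wild type. The median log2 fold changes then ran from 0.54 to 0.59, from −0.17 to −0.11 and from 0.41 to 0.45. For PBS against wild type 1 member was lower under upper quartile scaling, library totals alone, series 1, series 2 and the size threshold of 0.5, and the median was 0.94 with library totals. For RGLS4326 against PBS, lower members numbered 9 with upper quartile scaling (9.07% of all genes), 55 with library totals (27.2%), 9 with DESeq2 (8.74%), 19 with the transcript length trend removed (7.82%), when 1 was higher (11.8%), and 0 without the filter on low counts, with only the 2 groups fitted, in series 1, 2 and 3 and with the size threshold. For RGLS4326 against wild type, higher members numbered 0 in series 2, which holds mouse 9, and 31 in series 3, against 1.95% and 10.4% of all genes, and 23 with the size threshold, and lower ones 2, 0 and 2 in series 1, 2 and 3 and 3 with the length trend removed. Fewer mice were fitted within a series. Series 3 held a single wild-type mouse, so its calls against wild type cannot take in the spread between wild-type mice. No conclusion is drawn from those calls. The cause of the other moves was not tested.

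Signs turned for Rpl22l1 with RGLS4326 (−0.062 with library totals and −0.056 in series 2), Rpl35a with RGLS4326 (−0.074 with library totals and −0.014 in series 1), Rpl35a in PBS against wild type (0.047 with library totals and 0.21 in series 2), Rpl36al in PBS against wild type (−0.084 in series 1 and −0.055 with the length trend removed), Rps27l in PBS against wild type (0.16) and Rps27l with RGLS4326 (−0.023), both with library totals.

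Same-numbered mice are different animals. Over 12 pairs of PBS and RGLS4326 mice the mean correlation of deviations was −0.055 (lowest −0.42, highest 0.43), and 2 PBS mice matched their own number best, so the numbers share only a name. With the replicate number as a block, 75 members were higher and 2 lower in PBS against wild type, where 36.8% and 36% of all genes were. In RGLS4326 against PBS 0 were higher and 0 lower by edgeR's test, where 1.32% and 0.678% of all genes were. In RGLS4326 against wild type 75 were higher and 1 lower, where 31.5% of all genes were in each direction.

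Depth limits Rpl26, Rps27 and Rpl3l, with at most 39 counts per mouse.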

Other observations

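Smaller groups of ribosomal protein genes were read from the same fit. With PBS, 77 of all 82 members were higher and 3 lower, against 37.7% and 36.6% of all genes, and the member median was 0.56. With RGLS4326, 0 members were higher and 3 lower, against 9.15% and 6.66% of all genes. Of the 18 canonical genes mutated in Diamond-Blackfan anaemia, a failure of red cell production, 17 were higher and 1, Rpl35a, was lower with PBS than in wild type, with a median log2 fold change of 0.57. The Rpl35a call was lost without wild-type mouse 2 or 5. With RGLS4326 none of the 18 passed, at a median of −0.12, and −0.09 without mouse 9. Of the 9 genes whose proteins line or surround the exit of the peptide tunnel, 9 were higher with PBS, from 0.41 for Rpl26 to 0.69 for Rpl39, and 0 passed with RGLS4326, at a median of −0.12 and of −0.096 without mouse 9. The Rpl26 call was lost with DESeq2 (adjusted p = 0.0784), index series as a term (0.0531), the replicate block (0.0723) and the length trend removed (0.160), within each index series, and without wild-type mouse 2, 3 or 4 or PBS mouse 2 or 11, with values of 0.34 to 0.50 when each mouse was left out in turn.

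Rows with pseudogene symbols stayed outside the members. Rpl34-ps1 read 20.7 ± 2.29 CPM (SD, n = 5) in wild type and 29.9 ± 3.90 CPM (SD, n = 12) with PBS, a log2 fold change of 0.53 (SE 0.092, adjusted p = 7.89e-06 by edgeR). Rpl34 itself, of whose transcript windows 41.4% occur in other genes, read 2.30 to 3.85 CPM in wild type and 2.94 to 4.29 CPM with PBS and did not pass the test (adjusted p = 0.216). Rps19-ps3 read 2.21 CPM in wild type and 3.43 CPM with PBS, at 0.64 (SE 0.18, adjusted p = 0.00227).

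Among other cell type markers, 4 of 10 for distal tubule and collecting duct were higher and 5 lower with PBS, 1 of 8 for endothelium was higher and 4 lower, and 2 of 5 for podocytes were higher and 0 lower, where 37.7% of all genes were higher and 36.6% lower. With RGLS4326, 1 distal marker was higher and 3 lower, against 0 and 3 without mouse 9, and 4 of 10 proximal tubule markers were higher, against 1 of 10 without mouse 9. Of all genes 9.15% were higher and 6.66% lower, and 4.66% and 3.48% without mouse 9.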
